A study of Mus musculus with 8 samples.

Results

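The 10 genes described here mark bile duct cells (cholangiocytes), liver progenitor cells and the keratin filaments of epithelial cells: Krt7, Krt8, Krt18, Krt19, Krt23, Epcam, Sox4, Sox9, Spp1 and Prom1. They were matched by symbol to the probes of the array, and where a gene had several probes the one with the highest mean over the 8 arrays was taken. Of the 10 genes, 9 were measured, out of 19321 genes with a named probe; Spp1, which encodes osteopontin, was not analysed here. Each of the 9 had 1 probe with a value on all 8 arrays, and all 9 were tested among 16800 genes.

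The arrays came from 3 tumors in livers of mice on a high fat diet (mice 117, 186 and 1), from non-tumor tissue of the same 3 livers, and from 2 livers of mice on a normal diet (mice 117 and 120; this 117 is a different animal). All mice, the normal diet controls included, had been treated with the carcinogen DMBA as pups of 4 to 5 days and then kept on their diet for 30 weeks, so no group is free of DMBA and no normal diet tumor is among the samples. Total liver RNA was amplified and labelled with Cy5. Strain and sex are not given in the sources used here, and each tumor array is 1 tissue sample of 1 liver. RNA of whole tissue was measured, so that fewer cells of a type and less RNA per cell cannot be told apart.

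In healthy liver, keratins 8 and 18 pair with each other to form the filaments of hepatocytes, whereas cholangiocytes carry keratins 7 and 19 in addition. Cholangiocytes and progenitor cells are known for the adhesion molecule Epcam and the transcription factor Sox9, and progenitor cells also for the membrane glycoprotein prominin 1 (Prom1, CD133). Sox4 works beside Sox9 in forming bile ducts during development. Krt23 is an acidic keratin that is low in normal mouse liver and known to rise in liver under stress.

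The levels below are the deposited normalized intensities, on a linear scale on which the median probe of every array is 25. A level is comparable between arrays for 1 gene but not between genes. Fold changes and tests come from limma on background-corrected, quantile-normalized log2 intensities of the scanner files, adjusted over all genes by the method of Benjamini and Hochberg, and a gene is called where its adjusted p is below 0.05. The correction adds 50 to every signal, which makes the fitted change of dim genes smaller than the ratio of their levels. For the bright genes Krt8 and Krt18 the fitted fold was larger than the ratio of mean levels in all 3 comparisons. Levels or their ratios are given beside most fitted values. The hepatocyte markers Alb, Apoa1, Ttr and 7 others had values on every array, with summed levels of 189093 to 206731 in tumors, 182715 to 194045 in non-tumor tissue and 240417 to 248069 in normal diet liver. A few bright probes carry these sums, and the markers did not move together: of 10, 3 rose and 2 fell in tumors against non-tumor tissue (4 and 0 with the mouse as a block). Apoa1, Fgb and Serpina1a rose, with log2 fold changes of 0.86, 1.19 and 0.71. Cyp2e1, a drug-metabolizing enzyme, was at 1305 to 7218 in tumors against 24645 to 32306 in non-tumor tissue (-2.69, adjusted p = 0.0259; 0.0694 with the block and 0.0662 to 0.0746 without any 1 non-tumor array). Cps1 of the urea cycle was at 56.4 to 163.1 against 243.9 to 366.6 (-1.07, adjusted p = 0.0367; 0.123 with the block, and 0.063 to 0.112 without either normal diet array, any non-tumor array or the tumor of mouse 117).

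In tumors against the non-tumor tissue of the same livers, Krt18, Krt23, Prom1 and Sox4 rose, while Krt7, Krt8, Krt19, Epcam and Sox9 did not pass the test. This limma fit does not use the pairing within a liver. With the mouse as a block Epcam was called as well (limma, adjusted p = 0.0439). Without the block the 4 called of 9 were all higher, beside 25.4% of all tested genes called in either direction and 12.0% called higher. The median log2 fold change of the 9 genes was 0.30, against -0.01 over all tested genes. The same 4 genes were those whose tumor and non-tumor levels did not overlap; among the genes with a value on all 8 arrays, 38.5% did not overlap and 15.0% did not overlap and were higher.

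**Figure D1:**
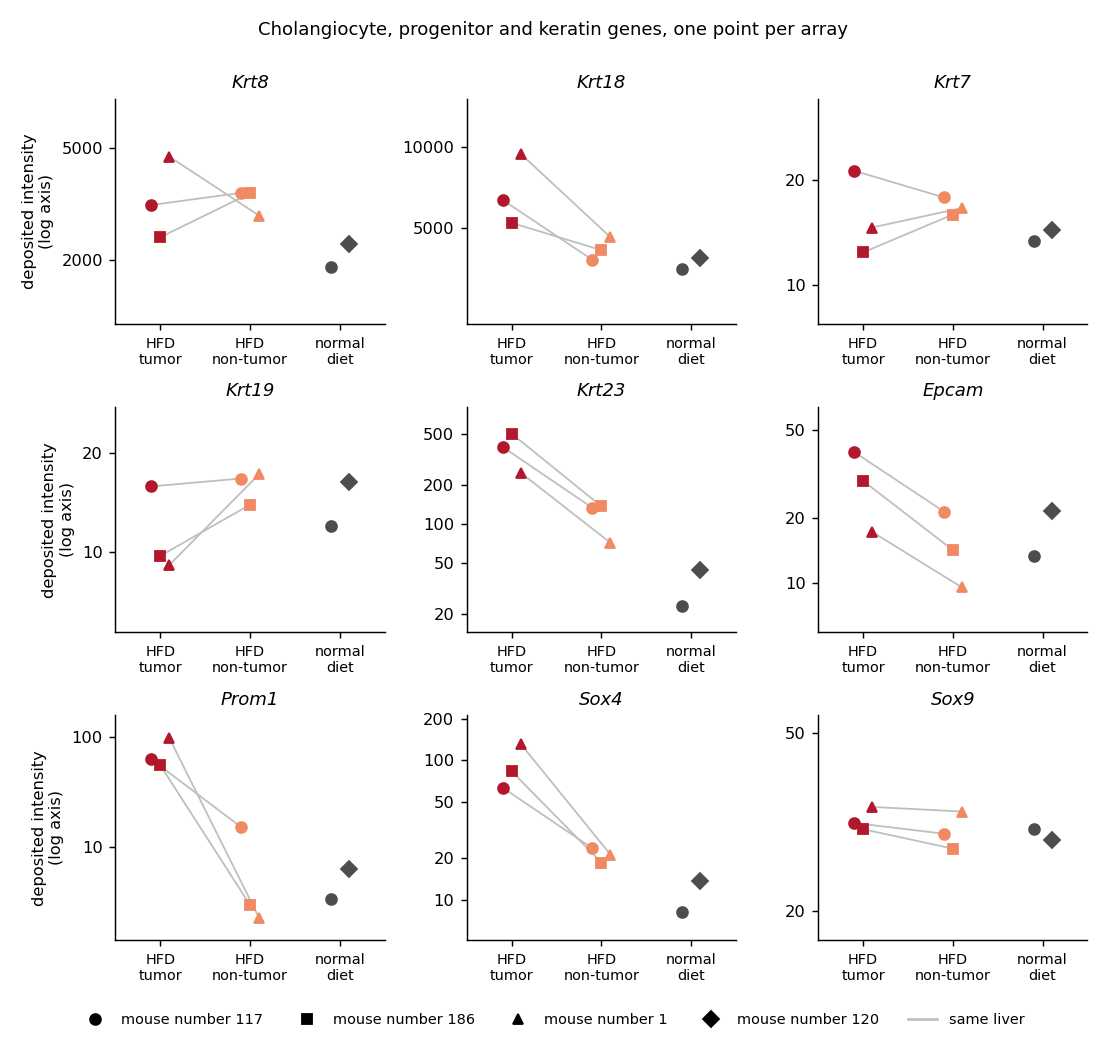
Deposited normalized intensity (log axis, 1 panel per gene) of the 9 measured genes in high fat diet (HFD) tumors, high fat diet non-tumor tissue and normal diet liver; each point is 1 array, the symbol gives the mouse number, and grey lines join tissue of 1 liver. The 3 tumors lie above all other arrays for Krt18, Krt23, Prom1 and Sox4, and Sox9 spans only 27.6 to 34.2 over all 8 arrays.

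Krt23 differed most between tumor and non-tumor tissue among the keratins of the set. Its level was 395.7, 501.1 and 250 in the tumors of mice 117, 186 and 1, against 133.6, 137.3 and 71.8 in their non-tumor tissue. Every tumor was above every non-tumor sample, by 2.96-fold, 3.65-fold and 3.48-fold within the livers of mice 117, 186 and 1. The fitted log2 fold change was 1.55 ± 0.31 (SE; limma, adjusted p = 0.0132, n = 3 each). Normal diet liver had 23.4 and 43.9, below both high fat diet tissues on every array. The tumors were 11.4-fold above normal diet liver by the ratio of mean levels, with a fitted log2 fold change of 2.57 ± 0.35 (adjusted p = 0.00302).

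Krt18, the acidic partner of Krt8, rose in the tumors by a smaller factor at a bright probe. Its level was 6360.0, 5220.8 and 9470.4 in the tumors of mice 117, 186 and 1, against 3796.0, 4128.9 and 4615.9 in their non-tumor tissue. The groups did not overlap, and the 3 livers gave tumor to non-tumor ratios of 1.68, 1.26 and 2.05. The fitted log2 fold change was 1.02 ± 0.18 (adjusted p = 0.00887), and 0.71 with the deposited values as input. Against normal diet liver, which had 3498.2 and 3865.8, the tumors were 1.91-fold higher by mean level and 1.48 ± 0.20 higher on the fitted log2 scale (adjusted p = 0.00329), or 0.89 with the deposited values as input.

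Krt8, the basic partner, did not pass the test between tumor and non-tumor tissue, and its direction differed between livers. Tumor levels were 3139.1, 2410.3 and 4666.7 in mice 117, 186 and 1, against 3468.0, 3453.4 and 2879.8 in the non-tumor tissue of the same mice. By these levels the tumor was higher only in mouse 1, at 1.62-fold, and was 0.905-fold and 0.698-fold of the non-tumor level in mice 117 and 186. On the normalized log2 scale of the fit, the differences were 0.12, -0.20 and 0.90 in mice 117, 186 and 1. The direction in mouse 117 thus depends on the normalization. The fitted log2 fold change was 0.27 ± 0.20 (adjusted p = 0.39). Normal diet liver had 1895.8 and 2287.3, lower than all 6 high fat diet samples. Against it the tumors rose by 1.19 ± 0.22 on the log2 scale (adjusted p = 0.0101; 1.63-fold by mean level), a call that ended with the deposited values as input (0.65, adjusted p = 0.059) and without normal diet array 117 (0.0773).

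Krt8 and Krt18 lie next to each other on chromosome 15, with no protein-coding gene between them in the RefSeq annotation. Their ratio within an array does not depend on how arrays are scaled, and the plot of that ratio shows the 2 tissues of each liver apart. The log2 ratio of Krt18 over Krt8 was 1.02, 1.12 and 1.02 in the tumors of mice 117, 186 and 1, against 0.13, 0.26 and 0.68 in their non-tumor tissue. The tumor samples were thus tightly grouped and all above the non-tumor samples. The difference of means was 0.70 (2-sided exact permutation test, p = 0.1, the smallest p that 3 against 3 arrays allow). That test exchanges arrays freely between the 2 groups and does not use the pairing of tissues within a liver. Its p therefore does not measure the difference within livers. Normal diet liver had 0.88 and 0.76, and the difference from it was 0.23 for tumors and -0.46 for non-tumor tissue (2-sided exact permutation test, p = 0.1 and p = 0.2; 0.1 is the smallest p that 3 against 2 arrays allow). A difference of this ratio would mean that the 2 genes changed unequally, and it does not tell which of them changed. With so few arrays the test could not give a p below 0.1.

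**Figure D2:**
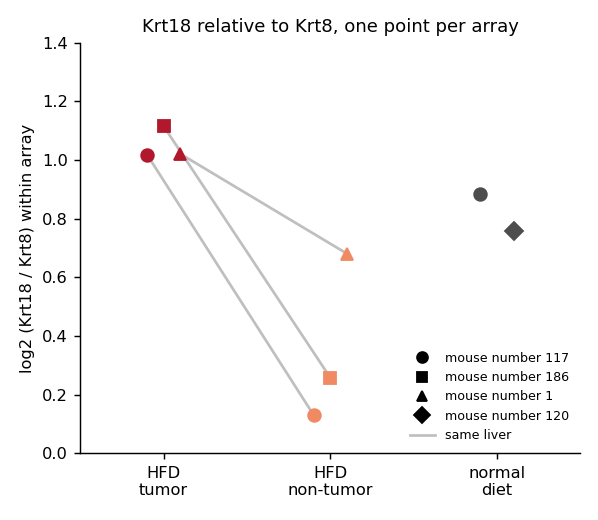
Log2 ratio of the deposited Krt18 over Krt8 intensity (y axis, log2 units) on each array of the 3 groups; lines join tumor and non-tumor tissue of 1 liver. The tumors lie between 1.02 and 1.12, the non-tumor samples between 0.13 and 0.68, and the normal diet livers at 0.76 and 0.88.

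Krt8 and Krt18 are neighbours whose measured ratio differed between tumor and non-tumor samples, and Krt23 moved most. The 250 bases upstream of the annotated starts of these 3 keratin genes are therefore shown. They are from RefSeq, build GRCm38.p6, each written 5′ to 3′ on the strand of its gene: Krt8 at chr15:102004343-102004592 (minus strand), Krt18 at chr15:102027966-102028215 (plus strand) and Krt23 at chr11:99493121-99493370 (minus strand). Capitals mark matches to any of 6 short motifs, searched on both strands. The letters searched were TGANTCA for AP-1, GGAATG for TEAD factors, TGGGAA for the Notch partner RBPJ, AACAAT for Sox factors, TATAAA for the box of that name near a start site, and CCAAT for the box named after it.
Krt8: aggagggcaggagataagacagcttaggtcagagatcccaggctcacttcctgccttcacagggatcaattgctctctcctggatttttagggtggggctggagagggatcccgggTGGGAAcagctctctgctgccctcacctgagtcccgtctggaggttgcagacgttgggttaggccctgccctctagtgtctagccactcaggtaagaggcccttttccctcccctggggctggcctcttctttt
Krt18: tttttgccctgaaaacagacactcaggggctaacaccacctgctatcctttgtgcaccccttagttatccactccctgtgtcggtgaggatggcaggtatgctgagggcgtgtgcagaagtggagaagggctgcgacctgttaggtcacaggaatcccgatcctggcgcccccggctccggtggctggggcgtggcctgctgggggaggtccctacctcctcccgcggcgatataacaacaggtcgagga
Krt23: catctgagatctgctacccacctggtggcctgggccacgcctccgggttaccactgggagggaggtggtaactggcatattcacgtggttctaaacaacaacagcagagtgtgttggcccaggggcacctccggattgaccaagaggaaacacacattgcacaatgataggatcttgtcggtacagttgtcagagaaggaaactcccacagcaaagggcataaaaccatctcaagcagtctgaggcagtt
The Krt8 window held 1 RBPJ match, starting 134 bases before the annotated start, and the Krt18 and Krt23 windows held none of the 6 motifs in these letters. Of 32851 such windows in the RefSeq table, 21.6% hold the RBPJ motif, so a match in 1 gene of this set is not unusual. These matches are letters in a sequence, and binding was not measured.

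The cholangiocyte keratins Krt7 and Krt19 were dim on all arrays and did not pass the test. Krt7 had 21.2, 12.4 and 14.6 in the tumors of mice 117, 186 and 1, against 17.8, 15.9 and 16.6 in non-tumor tissue and 13.4 and 14.4 in normal diet liver. Only the tumor of mouse 117 was above its non-tumor tissue, and the fitted log2 fold change was -0.02 ± 0.07 (adjusted p = 0.89). Krt19 had 15.8, 9.7 and 9.1 in the tumors, against 16.7, 13.9 and 17.2 in non-tumor tissue and 12.0 and 16.3 in normal diet liver. By level it was lower in the tumor than in the non-tumor tissue of all 3 livers, at 0.946-fold, 0.698-fold and 0.529-fold in mice 117, 186 and 1. On the normalized log2 scale the difference in mouse 117 was 0.01, and those in mice 186 and 1 were -0.16 and -0.19. The fitted log2 fold change was -0.11 ± 0.07 (adjusted p = 0.304), and without the tumor of mouse 117 it passed the test, with adjusted p = 0.0433.

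Prom1 had the largest tumor to non-tumor ratio of mean levels in the set, 10.6. Its level was 63.2, 55.9 and 98.8 in the tumors of mice 117, 186 and 1, against 15.3, 3.0 and 2.3 in their non-tumor tissue and 3.4 and 6.4 in normal diet liver. All tumors were above all other samples, by 4.13-fold, 18.6-fold and 43.0-fold within livers 117, 186 and 1. The denominators of the last 2 ratios are near the limit of the array: those non-tumor spots lay 3.24 and 2.86 standard deviations of the blank spots above the blank mean. The fitted log2 fold change, which the added 50 makes smaller, was 1.20 ± 0.16 against non-tumor tissue (adjusted p = 0.003) and 1.26 ± 0.18 against normal diet liver (adjusted p = 0.00346).

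Sox4, a transcription factor of the SoxC group, rose in the tumors of all 3 livers. Its level was 63.7, 83.5 and 131.6 in the tumors of mice 117, 186 and 1, against 23.4, 18.5 and 21.1 in non-tumor tissue and 8.2 and 13.7 in normal diet liver. The 3 groups did not overlap, with the tumors highest and normal diet liver lowest. Within livers 117, 186 and 1 the ratio was 2.72, 4.51 and 6.24, and the fitted log2 fold change was 1.07 ± 0.15 (adjusted p = 0.00406). Against normal diet liver the tumors were 8.49-fold higher by mean level and 1.32 ± 0.17 on the fitted log2 scale (adjusted p = 0.00263).

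Sox9 was at nearly the same level on every array. It had 31.5, 30.5 and 34.2 in the tumors of mice 117, 186 and 1, against 29.8, 27.6 and 33.4 in non-tumor tissue and 30.6 and 28.9 in normal diet liver. The fitted log2 fold change between tumor and non-tumor tissue was 0.04 ± 0.04 (adjusted p = 0.554), with a 95% interval from -0.05 to 0.13 on the offset scale. Tumors against normal diet liver gave 0.07 ± 0.04 (adjusted p = 0.304), and 0.13 with arrays scaled to the same median, which passed the test (0.0481).

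Epcam was higher in the tumor than in the non-tumor tissue of every liver, but the 2 tissues overlapped across livers. Its level was 39.8, 29.4 and 17.2 in the tumors of mice 117, 186 and 1, against 21.3, 14.2 and 9.6 in their non-tumor tissue and 13.3 and 21.4 in normal diet liver. The tumor of mouse 1 was thus below the non-tumor tissue of mouse 117, while the within-liver ratios of 1.87, 2.07 and 1.79 in mice 117, 186 and 1 were close to each other. Without regard to the liver the log2 fold change of 0.30 ± 0.15 did not pass the test (adjusted p = 0.204); with the mouse as a block it did (adjusted p = 0.0439). The blocked fit uses only the differences between the 2 tissues of 1 liver.

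**Figure D3:**
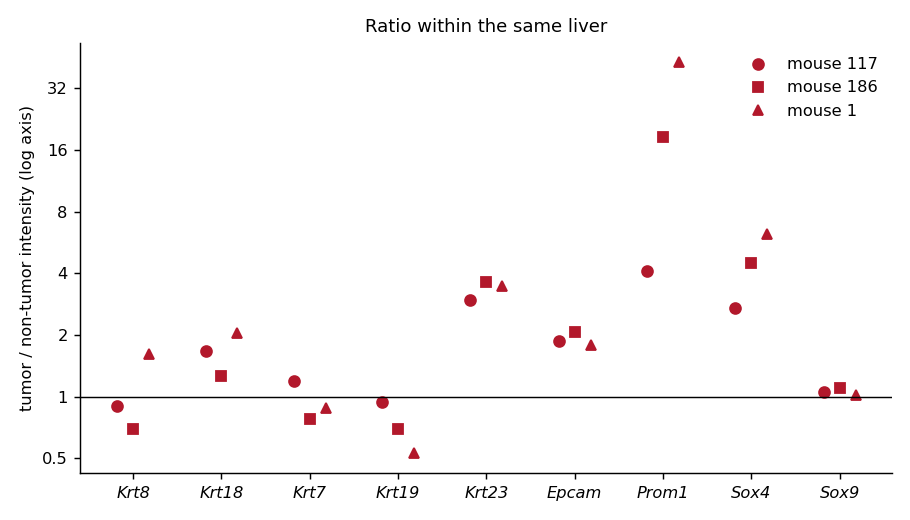
Tumor over non-tumor ratio of the deposited intensity within each of the 3 high fat diet livers (log axis), for the 9 measured genes; each point is 1 liver and the line marks equal levels. All 3 livers lie above 1 for Krt18, Krt23, Epcam, Prom1, Sox4 and Sox9 and below 1 for Krt19, and Prom1 spans 4.13 to 43.0. Directions near 1 depend on the normalization: on the normalized log2 scale Krt8 and Krt19 in mouse 117 gave 0.12 and 0.01. Sox9 in mouse 186 gave -0.004 on that scale.

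The tumors of the 3 mice did not rank alike across the genes. By deposited level the tumor of mouse 1 was the highest for Krt8, Krt18, Prom1, Sox4 and Sox9 and the lowest for Krt23, Epcam and Krt19. The tumor of mouse 117 was the highest for Krt7, Krt19 and Epcam. On the normalized log2 scale the tumor of mouse 117 was highest for Sox9 (6.48 against 6.45 in mouse 1). On that scale the tumor of mouse 186 was lowest for Krt19 (5.89 against 5.91 in mouse 1).

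The upstream windows of Prom1 and Sox4, the progenitor genes that rose, are shown for the same 6 motifs. For Prom1 the outer of its 2 annotated starts was taken, at chr5:44101737-44101986 (minus strand), and for Sox4 chr13:28953700-28953949 (minus strand), both GRCm38.p6 from RefSeq.
Prom1: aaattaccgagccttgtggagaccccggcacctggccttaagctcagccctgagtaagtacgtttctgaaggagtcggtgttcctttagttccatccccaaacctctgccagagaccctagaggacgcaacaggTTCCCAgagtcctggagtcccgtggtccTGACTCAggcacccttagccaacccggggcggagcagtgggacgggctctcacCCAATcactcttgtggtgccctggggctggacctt
Sox4: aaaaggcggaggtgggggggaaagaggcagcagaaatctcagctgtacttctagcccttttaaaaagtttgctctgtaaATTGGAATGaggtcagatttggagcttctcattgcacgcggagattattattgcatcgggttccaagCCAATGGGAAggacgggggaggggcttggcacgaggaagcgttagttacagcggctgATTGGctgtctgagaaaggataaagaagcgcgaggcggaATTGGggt
The Prom1 window held 1 AP-1 match (TGACTCA, 88 bases before the start), 1 RBPJ match on the opposite strand and 1 CCAAT. The Sox4 window held 1 TEAD match, 1 RBPJ match and 4 CCAAT matches, 3 of them on the opposite strand; the TEAD match overlaps 1 CCAAT match and the RBPJ match another. Over all 32851 windows, 6.75% hold AP-1, 12.6% TEAD, 21.6% RBPJ and 33.8% CCAAT. No SOX motif, which 9.42% of all windows hold, was matched in the windows of the measured genes that have one in the table.

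In non-tumor tissue of high fat diet livers against normal diet liver, none of the 9 genes passed the test (limma), where 3.84% of all tested genes did (1.81% higher and 2.03% lower); 2 of the 9, Krt8 and Krt23, had an unadjusted p below 0.05. Krt8 averaged 3267 ± 335 in non-tumor tissue (SD, n = 3), and its 2 normal diet values were 1895.8 and 2287.3, with no overlap. By mean level it was 1.56-fold higher. Its fitted log2 fold change was 0.92 ± 0.22 (adjusted p = 0.0816), and it passed the test when only these 2 groups were fitted (0.0485) or without the tumor of mouse 1 (0.0403). Krt23 was 3.39-fold higher by mean level, again with no overlap, at 1.02 ± 0.35 on the fitted log2 scale (adjusted p = 0.169; 0.0278 with the deposited values as input). Krt18 had 0.46 ± 0.20 (adjusted p = 0.279, and 0.0458 without the tumor of mouse 1). Its groups overlapped, and by mean level it was only 1.14-fold higher, against a fitted fold of 1.37. The levels of Krt7 and Sox4 did not overlap between these groups either, both higher in non-tumor tissue, with adjusted p = 0.65 and 0.487. Such a separation of 3 arrays from 2 was common, at 45.1% of all genes with a value on every array, 13.1% when only higher genes are counted.

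Tumors against normal diet liver gave 5 of 9 calls, all higher: Krt8, Krt18, Krt23, Prom1 and Sox4. Among all tested genes 27.8% were called and 12.9% called higher. The levels of the same 5 genes did not overlap, beside 57.1% of all genes with a value on every array and 16.7% counting only higher ones. The 3 comparisons share arrays, so their values are not independent of each other. The median log2 fold change of the 9 genes was 0.08 for non-tumor tissue and 1.19 for tumors against normal diet liver, against -0.00 and -0.01 over all genes.

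**Figure D4:**
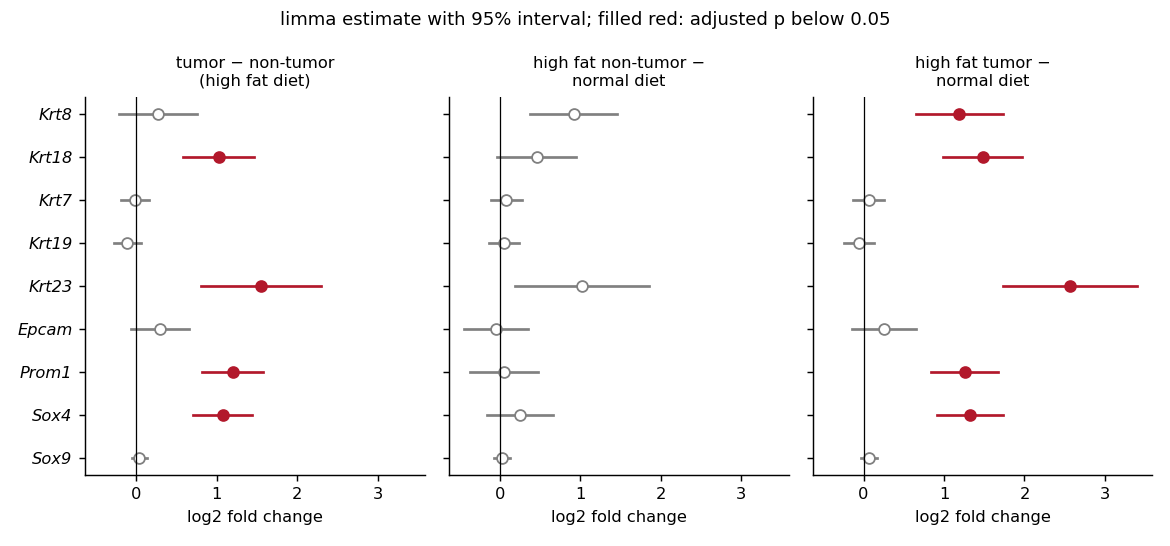
Fitted log2 fold changes (limma; bars are 95% intervals) of the 9 measured genes in each of the 3 comparisons, with called genes marked. Krt23 has the largest value in each, 1.55 for tumor against non-tumor, 1.02 for non-tumor against normal diet and 2.57 for tumor against normal diet, and Krt7, Krt19 and Sox9 lie between -0.11 and 0.08 throughout.

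Other keratins were measured beside the members: 43 are on the array and 33 were tested, of which 4 rose and 3 fell in tumors against non-tumor tissue, with a median log2 fold change of -0.00. Over all tested genes 12.0% rose and 13.4% fell in this comparison. The counts of this list and of the lists below stand beside those shares, and no difference from them was tested. Krt20, an acidic keratin of gut epithelium, rose most. Its level was 216.6, 255.3 and 233.2 in the tumors of mice 117, 186 and 1, against 2.6, 2.6 and 3.8 in non-tumor tissue; normal diet liver 117 had 1.5 and normal diet liver 120 had no value. Its fitted log2 fold change was 2.66 ± 0.05 (adjusted p = 1.22e-05), where the non-tumor levels are near the floor; with the local background as correction it was 1.18 and no longer passed (adjusted p = 0.208). Krt5, a basic keratin of basal epithelial cells, had 25.1, 31.3 and 33.0 in the tumors, 1.4 in the non-tumor tissue of mouse 1, and no value on the other non-tumor arrays or in normal diet liver. It was at least 1.61-fold higher in tumors than in normal diet liver on the normalized scale; no p is given, since it entered the test through the tumors alone and the other arrays hold little but the floor. Krt80 rose, with 359 ± 76.0 in tumors against 231 ± 23.3 in non-tumor tissue (log2 fold change 0.70 ± 0.14, adjusted p = 0.0143), although normal diet liver had 416.1 and 384.8. Krt34, a hair keratin, fell in tumors, with 61.7 ± 8.38 against 111 ± 12.4 (-0.51 ± 0.10, adjusted p = 0.0113). Normal diet liver had 47.5 and 40.2, below every other array, so that Krt34 was highest in non-tumor tissue. Non-tumor tissue against normal diet liver gave 0.84 ± 0.11 (adjusted p = 0.0152), a call that ended without normal diet array 117 (0.091) or 120 (0.112) or the non-tumor array of mouse 117 (0.0544).

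**Figure D5:**
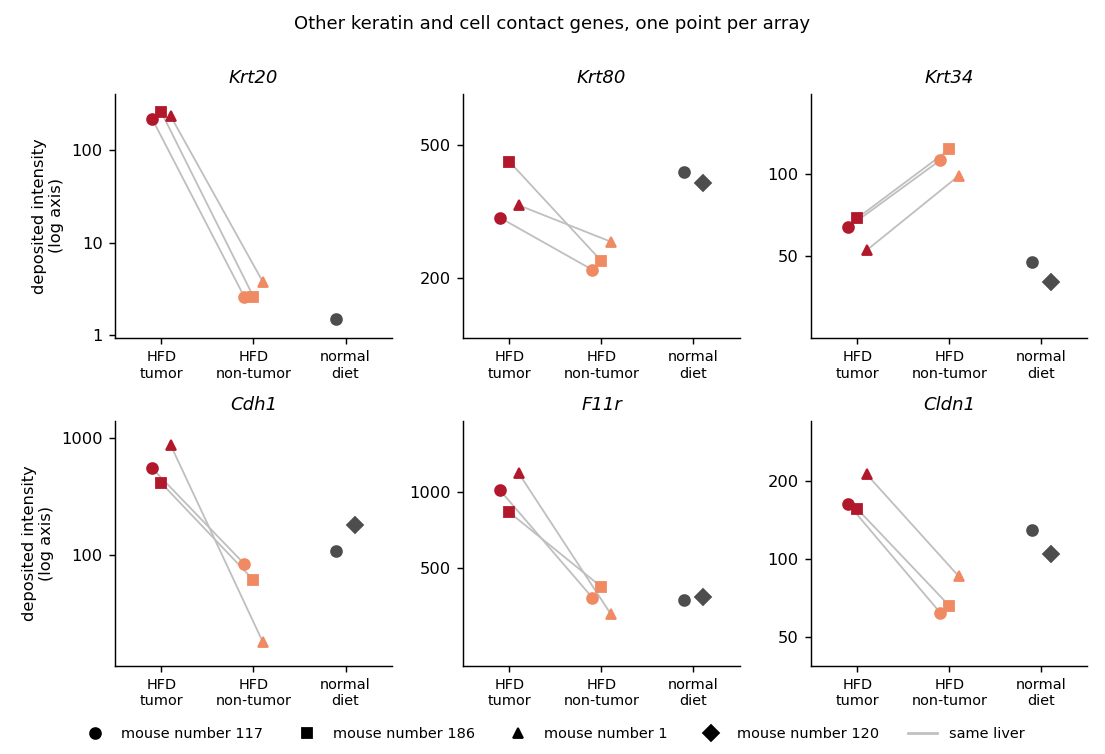
Deposited normalized intensity (log axis) of 3 other keratins and 3 cell contact genes, 1 point per array, lines joining tissue of 1 liver. The tumors have 216.6 to 255.3 for Krt20, against 2.6 to 3.8 in non-tumor tissue; Krt20 has no value on normal diet array 120 and so 1 normal diet point.

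Genes of cell junctions and desmosomes, to which keratin filaments attach, were mostly higher where they changed: 12 of 26 tested rose and 1 fell in tumors against non-tumor tissue, with a median of 0.28 (10 and 0 with the mouse as a block). Cdh1, which encodes E-cadherin of adherens junctions, had 549.2, 410.1 and 871.8 in the tumors of mice 117, 186 and 1, against 83.3, 60.6 and 17.9 in non-tumor tissue and 107.4 and 181.1 in normal diet liver. The tumors were far above both other tissues, and the log2 fold change against non-tumor tissue was 2.89 ± 0.35 (adjusted p = 0.00227). The tight junction gene F11r had 1011 ± 178 in tumors against 379 ± 45.8 in non-tumor tissue (1.57 ± 0.12, adjusted p = 0.000572). The claudins Cldn14 (216 ± 56.1 against 83.3 ± 12.2) and Cldn1 (177 ± 30.8 against 71.2 ± 12.8) rose as well. None of the 26 was called in non-tumor tissue against normal diet liver, and 9 rose in tumors against normal diet liver.

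Of the other cholangiocyte markers, 12 of 28 tested rose in tumors against non-tumor tissue and 2 fell, with a median of 0.20 (9 and 1 with the mouse as a block). Bicc1, an RNA-binding protein of tubular epithelia, had 141 ± 43.1 in tumors against 33.4 ± 10.6 in non-tumor tissue (log2 fold change 1.30 ± 0.22, adjusted p = 0.00694). Tspan8, Cldn3 and Anxa4 were among the others that rose. Wfdc2, a secreted protease inhibitor-like protein of ductal epithelia, went the other way. It had 85.6, 100.2 and 43.5 in the tumors of mice 117, 186 and 1, against 480.3, 535.3 and 438.2 in non-tumor tissue and 84.8 and 105.6 in normal diet liver. Non-tumor tissue was thus above both other groups, with log2 fold changes of -2.06 ± 0.21 for tumors against non-tumor tissue (adjusted p = 0.00137) and 1.96 ± 0.24 for non-tumor tissue against normal diet liver (adjusted p = 0.0131; 0.0964 and 0.0785 without normal diet array 117 or 120).

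The markers that define cholangiocytes did not rise together. Of 8 names, 7 were on the array, Krt7, Krt19, Epcam and Sox9 among them, and their summed level was 172.8 to 183.9 in tumors, 148.5 to 167.9 in non-tumor tissue and 140.9 to 149.0 in normal diet liver. In tumors against non-tumor tissue Pkhd1, which encodes fibrocystin of the primary cilium, rose, with 20.7, 20.1 and 21.1 in the tumors of mice 117, 186 and 1, against 8.2, 6.6 and 10.4 in non-tumor tissue. Cftr, the chloride channel of bile ducts, fell, with 17.4, 22.6 and 20.6 in the tumors against 25.3, 26.3 and 33.9, a call that ended with the mouse as a block (0.0509), or when the tumor of mouse 117 was left out (0.0518). With the mouse as a block 2 of the defining genes rose and 0 fell. Fewer of these defining genes than of the wider list were called, and whether the 2 shares differ was not tested. The lists overlap: Cftr, Sctr and Pkhd1 are counted in both, and Cdh1 in both the wider list and the junction list.

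Among progenitor and hepatoblast genes, 5 of 22 tested rose and 3 fell in tumors against non-tumor tissue, with a median of 0.04, beside 12.0% and 13.4% of all tested genes. Afp and Gpc3, made by the fetal liver, were among those that rose. Tnfrsf12a, the receptor of the progenitor mitogen TWEAK, had 748.2, 675.3 and 1013.1 in the tumors of mice 117, 186 and 1, against 110.6, 110.7 and 142.1 in non-tumor tissue and 70.3 and 80.9 in normal diet liver. The groups were wide apart, at a log2 fold change of 2.57 ± 0.11 (adjusted p = 0.000155). Aldh1a1, an aldehyde dehydrogenase used as a stem cell marker and also made by hepatocytes, fell, with 2990 ± 645 in tumors against 11065 ± 1372 in non-tumor tissue (-1.56 ± 0.22, adjusted p = 0.004).

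Notch signalling directs progenitor cells to the bile duct fate. Of 30 tested genes of the pathway, 5 rose and 2 fell in tumors against non-tumor tissue, with a median of 0.04. Over all tested genes 12.0% rose and 13.4% fell, and a change of the pathway as a whole was not tested. Nrarp, a feedback target of Notch, rose, with 44.2 ± 2.84 in tumors against 13.0 ± 2.08 (log2 fold change 0.63 ± 0.05, adjusted p = 0.000526). The target Hes1 had 120 ± 42.1 in tumors against 62.9 ± 5.37, with adjusted p = 0.0372; it lay above 0.05, between 0.0565 and 0.107, without either normal diet array or any 1 of the 3 non-tumor arrays. The gamma-secretase subunits Aph1a and Psen2, which cut the receptor, both fell. Aph1a had 61.4, 53.2 and 39.6 in the tumors of mice 117, 186 and 1, against 253.1, 230.7 and 327.7 in non-tumor tissue and 604.3 and 564.9 in normal diet liver, a separation of all 3 groups (adjusted p = 0.000624 for tumors against non-tumor tissue). Psen2 had 315 ± 7.29 in tumors against 561 ± 44.9 in non-tumor tissue (adjusted p = 0.00141).

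In the YAP and TEAD pathway, which controls growth and biliary fate, 3 of 23 genes rose and none fell in tumors against non-tumor tissue, with a median of 0.01. The share of all tested genes was 12.0% higher and 13.4% lower. With the mouse as a block 1 gene of the pathway rose and 1 fell. Frmd6, an upstream regulator of the Hippo kinases, had 93.9 ± 6.54 in tumors against 40.8 ± 9.01 in non-tumor tissue (adjusted p = 0.00199). The target Ankrd1 had 27.5 ± 10.1 against 5.30 ± 4.23 (adjusted p = 0.0115; 0.0728 with the block). Of the receptors, proteases and relatives of osteopontin, 3 of 15 rose and none fell (1 and 0 with the block); the integrin subunit Itgb5 had 340 ± 31.7 in tumors against 286 ± 10.1 (adjusted p = 0.00461; 0.128 with the deposited values as input).

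Partners of keratin aggregates and stress proteins gave 4 of 13 higher and 1 lower in tumors against non-tumor tissue, with a median of 0.14. The one that fell was Hspb1, a small heat shock protein that binds filaments. It had 277.7, 459.0 and 183.9 in the tumors of mice 117, 186 and 1, against 1141.5, 1453.9 and 1317.2 in non-tumor tissue and 372.5 and 401.9 in normal diet liver. Like Wfdc2 it was highest in non-tumor tissue, with log2 fold changes of -1.82 ± 0.31 for tumors against non-tumor tissue (adjusted p = 0.00738) and 1.76 ± 0.34 for non-tumor tissue against normal diet liver (adjusted p = 0.0469). The second of these calls ended on leaving out either normal diet array, any non-tumor array or the tumor of mouse 117, with adjusted p between 0.0831 and 0.238.

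Of the other Sox factors, 5 of 12 tested rose and 4 fell in tumors against non-tumor tissue, with a median of -0.03; with the mouse as a block none rose and 3 fell. Sox12, which belongs to the SoxC group with Sox4, fell, with 44.6 ± 6.41 in tumors against 79.6 ± 8.61 (log2 fold change -0.46 ± 0.07, adjusted p = 0.00442). Sox4 therefore went opposite to this relative on the same arrays.

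Markers of other tissues moved beside these genes. A few bright probes weigh most in the sums below, as for the hepatocyte markers. In tumors Msln of the mesothelial list had 453.5 to 599.7, Cd9 of the macrophage list 719.6 to 1093.3 and Cdh17 of the gut list 21.5 to 606.6. The summed level of 8 mesothelial markers was 553.2 to 664.4 in tumors, 211.9 to 279.9 in non-tumor tissue and 255.6 to 306.9 in normal diet liver; of 7 tested, 1, Msln, was called, with 453.5, 539.1 and 599.7 in the tumors of mice 117, 186 and 1, against 127.6, 145.1 and 147.4 in non-tumor tissue, while the other defining markers Upk3b and Wt1 averaged 18.3 and 7.27 in tumors against 36.2 and 7.57. For 11 markers of pancreas and gut epithelium, Krt20 among them, the sum was 934.7 to 1818.2 in tumors, 498.0 to 525.9 in non-tumor tissue and 462.0 to 477.6 in normal diet liver, with 3 of 9 tested higher and 2 lower and Cpa1 without a value on any array. The part of such cells, and of the cells below, in the rise of Krt18, Krt23, Krt20, Prom1 and Sox4 was not tested. Summed macrophage markers were 2081 to 2681 in tumors, 2673 to 2884 in non-tumor tissue and 1625 to 2378 in normal diet liver. Of the 14, 2 rose and 3 fell in tumors against non-tumor tissue. Cd9 and Fabp5 had log2 fold changes of 1.91 and 1.93, and the Kupffer cell genes Clec4f and Vsig4 had -1.39 and -0.92 (Clec4f adjusted p = 0.00801, and 0.0632 with the mouse as a block). Cd5l fell as well, with 290 ± 31.0 in tumors against 728 ± 103 in non-tumor tissue. Stellate and fibroblast markers summed to 1164 to 1874 in tumors, 1492 to 2178 in non-tumor tissue and 1004 to 1110 in normal diet liver, with Col3a1 higher in tumors (0.86, adjusted p = 0.0367) and Lrat lower (-0.86, adjusted p = 0.000423) of 9. The Col3a1 call ended without any 1 array other than the tumor of mouse 1 (0.0514 to 0.109). Endothelial markers summed to 544.3 to 818.5 in tumors, 790.6 to 884.8 in non-tumor tissue and 888.2 to 1088 in normal diet liver, with Pecam1 higher in tumors (0.59, adjusted p = 0.00852) of 7 tested. Of these, 5 had a positive log2 fold change and 0 were called lower. Clec4g went the other way by level without a call. It had 190.9 to 357.9 in tumors, 481.2 to 515.4 in non-tumor tissue and 507.4 to 724.5 in normal diet liver.

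The genes whose profile over the 8 arrays, centred on its mean, lay nearest to that of a member were sought for the 5 members whose group means spanned more than 1 log2 unit. Nearest to Krt23 were Sparc and Col3a1, both of extracellular matrix, with root mean square differences of 0.29 and 0.32 log2 units. Nearest to Krt8 were the lysosomal protease Ctsd and the cathepsin inhibitor Cstb (0.17 and 0.18), to Krt18 Pgr and Tmsb10 (0.10 and 0.11), to Prom1 Gldn and Cav2 (both 0.11) and to Sox4 Dusp5 and Tbx21 (0.10 and 0.11). Gldn had no value outside the tumors, and Dusp5 averaged 3.57 in non-tumor tissue and 2.10 in normal diet liver, so their likeness rests in part on a shared floor. These are descriptions over 8 arrays that share their preparation.

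Correction with the local background in place of the blank spots ended the calls of Krt18 (log2 fold change 0.74, adjusted p = 0.5) and Krt23 (1.04, 0.125) in tumors against non-tumor tissue, and of Krt8 (1.29, 0.62) and Krt18 (1.05, 0.293) in tumors against normal diet liver, so that Krt8 lost its call at a fold change no smaller than 1.19. Prom1 and Sox4 were called between tumor and non-tumor tissue under all 18 alternatives, several of which leave their values unchanged. Of the 54 calls between tumor and non-tumor tissue among all genes followed through the settings, the local background ended 43, Krt20, Krt80 and Krt34 among them. Tnfrsf12a, Wfdc2 and Msln kept theirs in this comparison. Between non-tumor tissue and normal diet liver it ended all 15, those of Wfdc2 (adjusted p = 0.167), Krt34 (0.428) and Hspb1 (0.999) included. Of 58 calls between tumors and normal diet liver it ended 45, and 1 more lost its call with a change of sign. The local background of a spot followed the brightness of the spot itself, with rank correlations of 0.902 to 0.960 per array.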

How the data were processed

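The samples were 8 single-colour arrays of amplified, Cy5-labelled mouse liver RNA in 3 groups, taken from the labels. The deposited table holds a normalized intensity per probe; the authors' steps are not given in the sources used here. Set against the deposited scanner files it equals each spot median less the average blank spot, scaled so that the median listed probe is 25. Probes about as dim as the blanks are left empty: 81.8% to 88.5% of probes had one per array, and the dimmest lay 1.25 to 1.57 standard deviations of the blanks above their mean. The scanner intensity, per the file headers, joins 3 gain scans.

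Scanner spot medians were background-corrected with normexp, taking the 2736 blank spots as controls and adding 50, then quantile-normalized on the log2 scale (limma 3.58.1, R 4.3.3). Of 23473 probes, 20690 had 1 gene symbol and 2783 none, and probe sequences were not used here. Genes with a value on all arrays of at least 1 group were tested with lmFit and eBayes over all 8 arrays (5 residual degrees of freedom), 2-sided, with Benjamini-Hochberg adjustment. A gene without any value in a group was compared with the lowest signal above background on each array. The number of arrays limits the precision, and no slide or scan batch is recorded in the files. Array correlations were 0.984 to 0.996 within and 0.919 to 0.983 between groups.

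The labels give tumor and non-tumor tissue of 1 liver the same mouse number. The deviations of same-numbered arrays from their group means correlated at 0.443, 0.148 and 0.167, against -0.275 to 0.028 for different mice, so the mouse was used as a block in an alternative fit. The deviations of a group sum to 0, so positive values for the same mouse push those for different mice below 0. Part of this contrast is therefore arithmetic. Number 117 on normal diet pairs with nothing.

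The genes and lists were chosen with earlier results of these data known. Genes named from a list were up to 4 per list and comparison, called, by size of the log2 fold change and with a value on all arrays of the higher group; genes of the marker lists and others outside this rule (Cldn3, Anxa4) were named after their values were seen. On simulated data with 16800 genes, 91.0% of genes changed by 1 log2 unit were recovered between tumor and non-tumor tissue, and 70.1% of those changed by 0.5. The same steps recovered 94.0% and 61.2% between non-tumor tissue and normal diet. The simulation drew independent normal noise for each gene and array, without liver pairing or shared array effects. It changed only a small part of the genes, unlike the data. These shares therefore do not measure the sensitivity on the real arrays, where Krt23 at 1.02 in the last comparison was not called (limma, adjusted p = 0.169).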

Additional observations from a re-analysis of the deposited data

How the results depend on the processing

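Prom1 and Sox4 stayed called in tumors against non-tumor tissue under all 18 alternatives, with log2 fold changes of 0.77 to 2.51 and 0.65 to 1.75. Not all of these could challenge the calls. Each gene has 1 probe with a value on every array, so averaging probes or changing the filter left its values the same. With the mouse as a replicate block 3484 genes were called between tumor and non-tumor tissue, against 4266 without it, and 2988 were shared; 5 of the 9 genes were called, against 4, through Epcam.

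The local background left 135 genes called between tumor and non-tumor tissue (102 higher, 33 lower; 2 of the 9), 3 between non-tumor tissue and normal diet (0 higher, 3 lower) and 224 between tumors and normal diet (135 higher, 89 lower; 3 of the 9). It turned Krt8 to -0.41 between tumor and non-tumor tissue, and Krt7, Krt19 and Sctr to -0.0026, 0.0117 and -0.0248 between tumors and normal diet. Scaling to the same median gave 1403 calls between non-tumor tissue and normal diet (1084 higher and 319 lower, against 304 and 341), 18 of the pathway genes against 9, 4182 lower genes between tumors and normal diet against 2509, and -0.0199 for Prom1 between non-tumor tissue and normal diet; it called Sox9 between tumors and normal diet (0.13). The deposited values as input gave 1149 calls between non-tumor tissue and normal diet (359 higher, 790 lower), with 1 of the 9 genes. Between tumors and normal diet they gave 3804 lower genes and a median of all genes of -0.13. Fitting only the compared groups called 1 of the 9 between non-tumor tissue and normal diet. The cause of these shifts was not tested.

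Leaving out 1 array gave 3121 to 4177 calls between tumor and non-tumor tissue (1475 to 2080 higher, 1646 to 2097 lower; 4 to 5 of the 9), 117 to 777 between non-tumor tissue and normal diet (57 to 390, 60 to 387; 0 to 2 of the 9) and 2326 to 4413 between tumors and normal diet (1042 to 2162, 1284 to 2376; 4 to 5 of the 9). It changed the sign of small values that had not passed the test: Krt7 at -0.1002 to 0.044 between tumor and non-tumor tissue; Krt19 at -0.01 to 0.12, Epcam at -0.1539 to 0.0671 and Prom1 at -0.0611 to 0.12 between non-tumor tissue and normal diet; Krt7 at -0.0201 to 0.1227 and Krt19 at -0.13 to 0.0084 between tumors and normal diet. Signals near the blank level limit the dim genes, such as Prom1 outside the tumors.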
